A study of Mus musculus with 15 samples.

Results

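The Slc25 family, the mitochondrial carriers, was followed through ribosome profiling of mouse embryonic stem cells (mESCs). Members were taken by name alone, as transcripts whose GENCODE M21 symbol starts with Slc25a, and 47 of the 21727 transcripts counted by the authors met this rule. Of these 47 members, 30 had enough counts to be tested (more than 2 CPM, a count scaled to library size, in no fewer than 14 of the 15 libraries) and 17 did not. The cells were E14Tg2a.4 mESCs in which a 3xFLAG epitope tag had been placed by CRISPR at the C-terminus of endogenous *Rps27* (*Rps27-FLAG*) or *Rps27l* (*Rps27l-FLAG*), homozygously, spelled eS27-FLAG and eS27L-FLAG in the sample labels, and an untagged wild-type (WT) line. Each line was represented by 3 clones, picked separately for the tagged lines, so that a value of a line stands for these clones. Every culture was treated with cycloheximide, and lysate clarified by centrifugation was digested with RNase A and T1. The pieces of mRNA that ribosomes shield from the nucleases (RPFs, ribosome-protected fragments) were sequenced before immunoprecipitation in all 9 clones (total RPFs) and after it, from anti-FLAG beads, in the 6 tagged clones (IP RPFs). There were 5 conditions of 3 libraries. The design asks whether ribosomes holding *Rps27* or its paralog *Rps27l* carry fragments of different mRNAs, and no IP RPFs of an untagged line are analysed here.

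Carriers of this family exchange metabolites, nucleotides, inorganic ions and cofactors across the inner mitochondrial membrane, which is otherwise closed to them. They are small proteins built from tandem repeats of a pair of membrane helices and an intervening loop, each repeat with a signature that starts with a proline and holds an acidic and a basic residue at fixed distances. They are encoded in the nucleus, made on cytosolic ribosomes, and in most cases carry no cleaved presequence: the TOM complex of the outer membrane, the small TIM chaperones and the TIM22 complex bring them into the inner membrane.

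Members picked by symbol alone were checked against that signature, searched in frame over the GENCODE M21 CDSs of the transcripts counted by the authors. The pattern was a proline codon, any codon, an aspartate or glutamate codon, any pair of codons, and a lysine or arginine codon. At least 1 match was present in 44 of the 47 members (93.6%) and in 28.3% of the 19196 other CDSs, and at least 3 matches in 26 members (55.3%) and 2.46% of the others. *Slc25a46*, *Slc25a51* and *Slc25a53* had none. The stretch around the second match is shown for the adenine nucleotide carriers *Slc25a5*, *Slc25a4* and *Slc25a31*, whose similarity could have mixed their fragments. It is also shown for *Slc25a3* and *Slc25a39*, whose IP results are described below. Each stretch is 60 nt of the coding strand, read 5′ to 3′ from the GENCODE M21 transcripts, with the signature codons in capitals.
Slc25a5: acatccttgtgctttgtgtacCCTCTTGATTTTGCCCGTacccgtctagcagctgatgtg
Slc25a4: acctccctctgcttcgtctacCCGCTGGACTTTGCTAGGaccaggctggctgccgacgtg
Slc25a31: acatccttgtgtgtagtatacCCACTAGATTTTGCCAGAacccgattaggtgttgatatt
Slc25a3: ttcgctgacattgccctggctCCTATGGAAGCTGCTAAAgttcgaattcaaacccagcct
Slc25a39: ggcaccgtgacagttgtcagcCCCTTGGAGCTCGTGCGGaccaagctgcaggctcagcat
On GRCm38 these coding stretches lie at chrX:36797107-36797166 (+ strand, exon 2) for *Slc25a5*, chr8:46209185-46209244 (- strand, exon 2) for *Slc25a4* and chr3:40720542-40720601 (+ strand, exon 3) for *Slc25a31*. Those of *Slc25a3* and *Slc25a39* lie at chr10:91118761-91118820 (- strand, exon 5) and chr11:102404564-102404623 (- strand, exon 8). Within the stretch *Slc25a4* differed from *Slc25a5* at 17 of 60 bases and *Slc25a31* at 15. Over their whole CDSs of 894 nt, *Slc25a4* and *Slc25a5* were identical at 77.4% of positions, and the longest run of bases they shared was 20 nt. Runs shared by the other paralogs compared here were at most 23 nt long. Of all 47 members, only *Slc25a37* had any 28-nt window in common with another transcript of the table (184 of its 987 windows, shared with *Gm16867*, which had 0 counts). Exact fragments of 28 nt could thus be told apart between members. As only unique alignments were counted, fragments from the shared windows could be missing from the counts of *Slc25a37* and *Gm16867*.

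The 9 total RPF libraries held 6313827 to 8064166 counts and the 6 IP RPF libraries 3972152 to 6673935. Between 0.266% and 0.303% of a library fell on the family. All 10 embryonic stem cell markers examined (*Pou5f1*, *Nanog*, *Sox2* and others) were tested, with a summed level of 4136 to 5152 normalized CPM, while the 6 fibroblast feeder markers summed to 11.3 to 37.4 and the 7 early germ layer markers to 9.58 to 25.5. Transcripts encoded in the mitochondria, which are read by mitochondrial ribosomes, made up 0.462% to 0.704% of total RPF libraries and 0.0347% to 0.0842% of IP RPF libraries, and were left out of the tests. Levels of single transcripts are normalized CPM per kb of counted CDS, which allows a comparison between genes. The samples are cultures, and fewer cells making a transcript and fewer fragments per cell cannot be told apart.

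Fragments of the family came mostly from 3 members, the adenine nucleotide carrier *Slc25a5*, the phosphate carrier *Slc25a3* and the adenine nucleotide carrier *Slc25a4*, which together held 68.3% to 72.1% of the family's counts in each library. In the WT total RPFs *Slc25a5* stood at 1166, 1250.2 and 1299 normalized CPM per kb, above 99.3% of all tested transcripts. *Slc25a3* stood at 642, 681 and 663 and *Slc25a4* at 416, 307 and 278, without overlap between these 3 members. The pyrimidine nucleotide carrier *Slc25a36* (111 ± 7.17, mean ± SD, n = 3) and the aspartate/glutamate carrier *Slc25a13*, also called citrin (101 ± 8.11), followed, and no other member had a mean above 100 per kb. The median of the 30 tested members was 18.9 per kb against 25.5 for all 10085 tested transcripts. Of the 29 neighbouring pairs in the order of WT levels, only 6 had libraries that did not overlap, 3 of them at the top, so that most of the order below *Slc25a4* is within the spread of 3 clones.

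**Figure D1:**
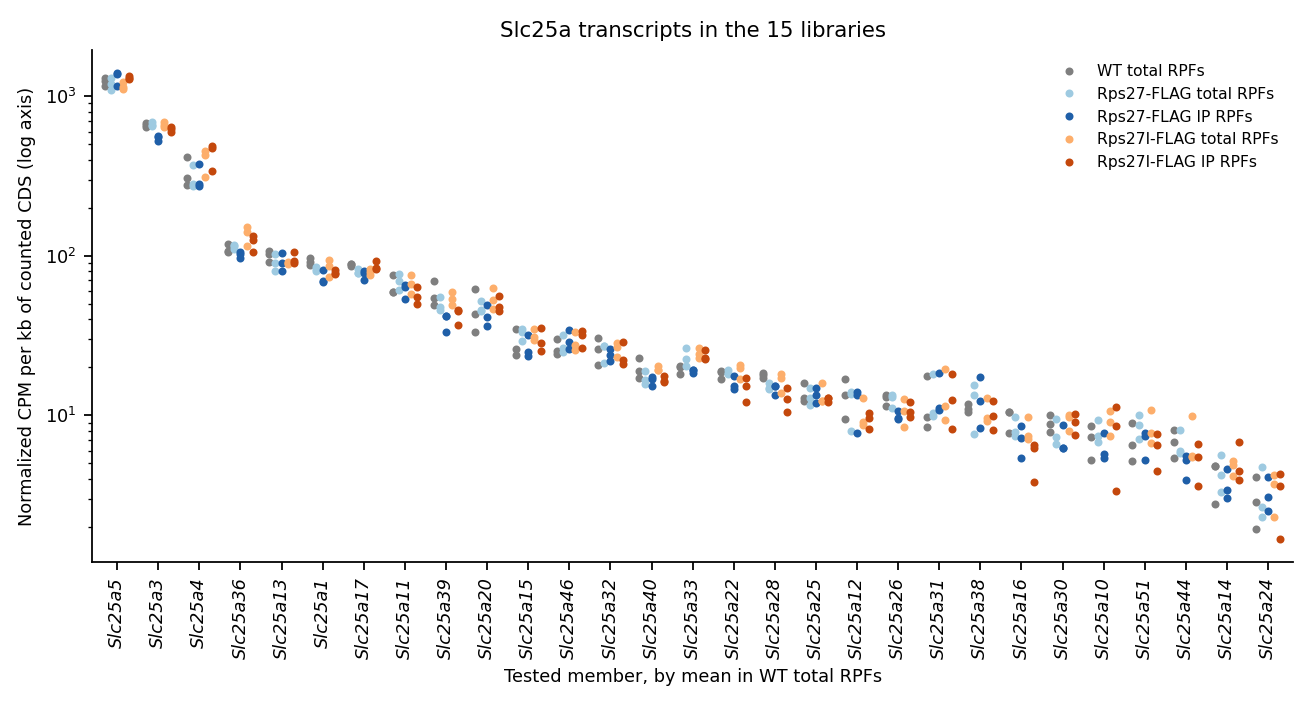
Level of 29 of the 30 tested Slc25a members in all 15 libraries, as normalized CPM per kb of counted CDS on a log axis, with members ordered by their mean in the WT total RPFs and 1 point for each library, coloured by condition. *Slc25a5*, *Slc25a3* and *Slc25a4* stand apart from the rest, and below them the members run from 111 in *Slc25a36* down to 4.12 in *Slc25a14* and 2.96 in *Slc25a24* (WT means).

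Paralogs with related substrates stood at different levels. *Slc25a31*, the adenine nucleotide carrier known from germ cells, stood at 17.6, 9.75 and 8.46 per kb in WT, far under *Slc25a4* and *Slc25a5*. Of the calcium-regulated aspartate/glutamate carriers, *Slc25a12* (aralar) stood at 9.44, 16.9 and 13.3, far under *Slc25a13* (91.7, 102 and 108) in each clone. Of the glutamate carriers *Slc25a22* stood at 16.9, 18.6 and 18.9 and *Slc25a18* had 0 to 4 counts per library. The ornithine carrier *Slc25a15* stood at 34.9, 24.0 and 26.0, and its intronless relative *Slc25a2* had 0 counts in all 15 libraries, which allows a level of up to 0.372 to 0.755 CPM (3 counts, depending on the library). Of the mitoferrins, which import iron, *Slc25a28* stood at 17.2, 18.4 and 17.9 and *Slc25a37*, the form of red blood cell precursors, had 8 to 47 counts per library and was not tested. *Slc25a39* and *Slc25a40*, both tied to mitochondrial glutathione, stood at 69.2, 54.1 and 48.9 and at 19.0, 22.9 and 17.1. Among the ATP-Mg/phosphate carriers, *Slc25a25* stood at 12.8, 12.4 and 15.8, *Slc25a24* at 4.10, 1.95 and 2.85 and the untested *Slc25a23* at 2.19, 1.39 and 1.34.

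Members that were not tested fall in 2 sets. *Slc25a35*, *Slc25a37*, *Slc25a43* and *Slc25a23* reached 27, 47, 25 and 33 counts in their highest library. The other 13 (*Slc25a2*, *Slc25a18*, *Slc25a21*, *Slc25a27*, *Slc25a29*, *Slc25a34*, *Slc25a41*, *Slc25a42*, *Slc25a45*, *Slc25a47*, *Slc25a48*, *Slc25a53* and *Slc25a54*) had at most 11 counts in every library, so that no comparison of them was detectable at this depth. All 8 members listed as carriers with no agreed substrate were among the 17. Of the remaining tested members, the citrate carrier *Slc25a1* had 64.7 to 84.3 normalized CPM over the 9 total RPF libraries, the oxoglutarate/malate carrier *Slc25a11* 50.9 to 68.0, the peroxisomal carrier *Slc25a17* 64.8 to 76.9 and the carnitine/acylcarnitine carrier *Slc25a20* 28.1 to 53.2. The folate carrier *Slc25a32* had 18.5 to 27.0, the dicarboxylate carrier *Slc25a10* 4.18 to 8.46, the glycine carrier *Slc25a38* 7.02 to 14.1 and *Slc25a30*, a relative of the uncoupling proteins, 5.40 to 8.14.

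In the total RPFs no member passed the threshold between lines. edgeR's quasi-likelihood test with Benjamini-Hochberg adjustment over all 10085 transcripts, called at an adjusted p under 0.05, gave 0 members in each of the comparisons *Rps27-FLAG* over WT, *Rps27l-FLAG* over WT and *Rps27l-FLAG* over *Rps27-FLAG*, where 0%, 0% and 0% of all transcripts were called. Members with an unadjusted p under 0.05 numbered 0, 3 and 1, and voom with limma and DESeq2 called 0 members too. The replicate number also marks a pool. By the paper, barcoded fragments of a replicate were combined before rRNA depletion, reverse transcription, amplification and sequencing. With the replicate number as a block, 0.00992%, 1.43% and 1.36% of transcripts were called, and *Slc25a4* was the member called, in *Rps27l-FLAG* over *Rps27-FLAG*. It had 370.5, 275 and 280.1 normalized CPM per kb in the *Rps27-FLAG* total RPFs and 454, 427 and 312 in those of *Rps27l-FLAG*. Its level was higher in *Rps27l-FLAG* for each replicate number, while the libraries of both lines overlapped. The log2 difference was 0.37 (standard error 0.180, adjusted p = 0.803 from edgeR without the block and 0.0444 with it). The median ratio of the highest to the lowest of the 9 total RPF libraries was 1.47 for the tested members and 1.40 for all tested transcripts, and *Slc25a3* had one of 1.08.

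Most carriers had lower values in IP RPFs than in total RPFs, in both tagged lines. In *Rps27-FLAG* 21 of the 30 tested members had a log2 fold change of IP over total below 0, with a median of -0.15 against -0.01 for all tested transcripts, of which 51.7% were below 0. In *Rps27l-FLAG* 22 of 30 were below 0, with a median of -0.09 against -0.03 and 56.3% of all transcripts below 0. Few of these changes passed the test one by one. With the fraction as the only term of the fit, *Slc25a3* was called lower in *Rps27-FLAG* (1 of 30 members, with 5.34% of all transcripts called lower) and 0 members were called higher (0.327% of all). In *Rps27l-FLAG* 0 members were called, with 2.27% of all transcripts called lower and 0.833% higher, and 2 members had an unadjusted p under 0.05. voom with limma and DESeq2 gave the same numbers of members.

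Each clone gave both an IP and a total library, and fitting the clone as a block narrowed the errors. With this block 8 members were called in *Rps27-FLAG*, 7 lower and 1 higher, where 41.2% of all transcripts were called and 22.9% were lower. In *Rps27l-FLAG* 8 members were called, 6 lower and 2 higher, where 31.0% of all transcripts were called and 19.0% were lower. *Slc25a3*, *Slc25a11*, *Slc25a36*, *Slc25a39* and *Slc25a5* were called in both lines, the first 4 lower and *Slc25a5* higher. How many of all transcripts were called in both lines was not counted, so this overlap says nothing about the family. The 7 of 30 and 6 of 30 members called lower are near the shares of all transcripts called lower, so that these counts are no result about the family. All 10 embryonic stem cell markers were called higher in IP RPFs of *Rps27-FLAG* with the block and 8 of 10 in those of *Rps27l-FLAG*. The shares of all transcripts called in either direction were the 41.2% and 31.0% given above. Without the block 0 and 1 of the 10 markers were called higher, with median log2 fold changes of 0.19 and 0.20. Their part in the values of the carriers was not tested.

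The phosphate carrier *Slc25a3*, which brings in the phosphate that ATP synthase uses, had 657, 653 and 689 normalized CPM per kb in the total RPFs of *Rps27-FLAG* and 526, 552 and 563 in the IP RPFs. All 3 IP libraries lay below all 3 total libraries, and the total libraries were at the level of WT. The log2 fold change was -0.29 (standard error 0.0567, adjusted p = 0.0292 from edgeR without the block). In *Rps27l-FLAG* the levels were 684, 639 and 656 in total and 642, 595 and 626 in IP RPFs. These overlapped between fractions, although IP was below total in each clone, and the log2 fold change was -0.09 (standard error 0.0502, adjusted p = 0.441 without and 0.0101 with the clone as a block, from edgeR). The call in *Rps27-FLAG* was lost without replicate 2 (log2 fold change -0.30, adjusted p = 0.407) or replicate 3 (-0.28, adjusted p = 0.313), settings in which 0 of all transcripts were called. Over all alternatives the adjusted p ran from 8.26e-28 to 0.407, and 11 of 13 passed.

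Among the adenine nucleotide carriers, which exchange ADP for ATP, *Slc25a5* went the other way. *Slc25a5* had 1099, 1199.9 and 1293 per kb in the total and 1152, 1373 and 1389 in the IP RPFs of *Rps27-FLAG*. In *Rps27l-FLAG* it had 1149, 1117 and 1231 in the total and 1302, 1286 and 1338 in the IP RPFs. IP was above total in all 6 clones, and in *Rps27l-FLAG* all 3 IP libraries were above all 3 total libraries. The log2 fold changes of 0.12 and 0.17 were called with the block (adjusted p = 2.29e-04 and 4.76e-07 from edgeR) and not without it (0.483 and 0.124). When the trend with CDS length was removed as well, the value in *Rps27-FLAG* was 0.02 (adjusted p = 0.670) and that in *Rps27l-FLAG* 0.09 (adjusted p = 0.00727), both from edgeR with the block. *Slc25a4* had clone ratios (log2 of IP over total within 1 clone) of 0.02, 0.04 and -0.04 in *Rps27-FLAG* and 0.11, 0.16 and 0.12 in *Rps27l-FLAG*, and was called higher in the latter with the block (0.13, adjusted p = 6.53e-04). With the length trend removed as well, *Slc25a4* lost this call (0.05, adjusted p = 0.247), and in *Rps27-FLAG* it turned from 0.01 to -0.09 and was called lower (adjusted p = 0.0293 from edgeR). For *Slc25a31*, at a low level, the ratios were 0.01, 0.11 and 0.13 in *Rps27-FLAG* and -0.10, -0.17 and 0.14 in *Rps27l-FLAG*, on both sides of 0 in *Rps27l-FLAG*.

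**Figure D2:**
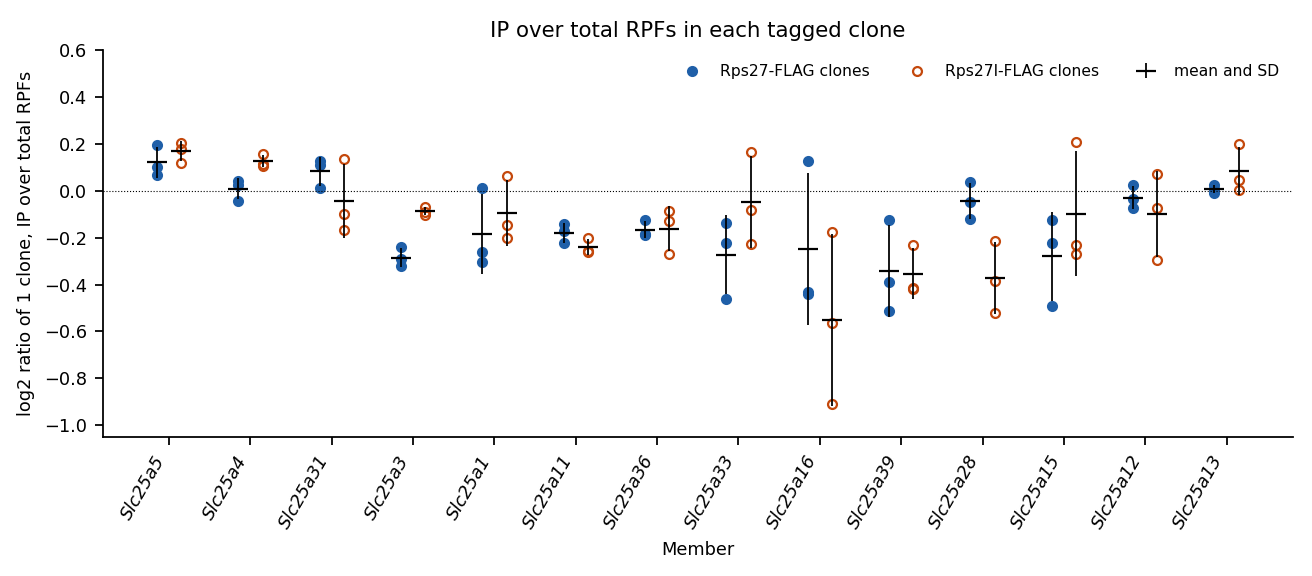
log2 ratio of IP over total RPFs within each tagged clone for 14 Slc25a members, with filled points for the 3 *Rps27-FLAG* clones, open points for the 3 *Rps27l-FLAG* clones, and a bar and line for the mean and SD of each line. All clones of *Slc25a3*, *Slc25a11*, *Slc25a36* and *Slc25a39* lie below 0 and all clones of *Slc25a5* above it, and *Slc25a3* lies lower in *Rps27-FLAG* (-0.32 to -0.24) than in *Rps27l-FLAG* (-0.10 to -0.07).

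All 3 tested carriers of di- and tricarboxylates had log2 fold changes below 0 in both lines. *Slc25a11*, which exchanges oxoglutarate for malate, had clone ratios of -0.22, -0.14 and -0.17 in *Rps27-FLAG* and -0.26, -0.26 and -0.20 in *Rps27l-FLAG*, and was called with the block in both (adjusted p = 0.00974 and 0.00194 from edgeR). All 6 clones lay below 0. *Slc25a1*, which exports the citrate used to make fatty acids, had -0.26, -0.30 and 0.01 in *Rps27-FLAG* and -0.14, -0.20 and 0.06 in *Rps27l-FLAG*, so that replicate 3 of either line was above 0 while the other clones were below it, and was called in *Rps27-FLAG* (adjusted p = 0.00214 with the block). *Slc25a10* had log2 fold changes of -0.31 (standard error 0.232) and -0.19 (0.364) and did not pass the test.

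Among the iron and glutathione carriers *Slc25a39* was the lowest in *Rps27-FLAG*. *Slc25a39* had 55.0, 45.6 and 47.6 per kb in the total and 42.0, 41.7 and 33.3 in the IP RPFs of *Rps27-FLAG*, and 59.6, 53.7 and 49.4 in the total and 44.7, 45.8 and 36.9 in the IP RPFs of *Rps27l-FLAG*. In each line all IP libraries were below all total libraries. The log2 fold changes were -0.34 and -0.35, with standard errors of 0.121 and 0.115, and were called with the block (adjusted p = 1.36e-05 and 3.23e-05 from edgeR) and not without it (0.158 and 0.161). *Slc25a40* had log2 fold changes of -0.05 and -0.22 and did not pass in either line. *Slc25a28* had clone ratios near 0 in *Rps27-FLAG* (-0.12, -0.05 and 0.04) and lower ones in *Rps27l-FLAG* (-0.22, -0.39 and -0.52), where it was called with the block (adjusted p = 0.0252).

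Among the 8 tested carriers of cofactors, nucleotides and vitamins, 7 in *Rps27-FLAG* and 6 in *Rps27l-FLAG* were below the transcripts of like CDS length, as defined below. *Slc25a36* had clone ratios of -0.12, -0.19 and -0.18 in *Rps27-FLAG* and -0.27, -0.13 and -0.09 in *Rps27l-FLAG*, below 0 in all 6 clones, and was called with the block in both lines (adjusted p = 0.00344 and 0.00252 from edgeR). Its relative *Slc25a33*, also a pyrimidine nucleotide carrier, had -0.14, -0.22 and -0.46 in *Rps27-FLAG* and -0.22, -0.08 and 0.16 in *Rps27l-FLAG*, and was called in *Rps27-FLAG* (adjusted p = 0.0451 with the block). *Slc25a16*, linked to coenzyme A, had -0.44, -0.43 and 0.13 in *Rps27-FLAG* and -0.18, -0.91 and -0.56 in *Rps27l-FLAG*. This was the lowest log2 fold change of the family in *Rps27l-FLAG* (-0.53, standard error 0.252), called with the block (adjusted p = 0.0364), at 16 to 74 counts per library.

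The NAD carrier *Slc25a51* had -0.37, -0.23 and -0.42 in *Rps27-FLAG* and -1.25, -0.03 and -0.01 in *Rps27l-FLAG*, with 1 *Rps27l-FLAG* clone far below the other clones. The S-adenosylmethionine carrier *Slc25a26* had -0.19, -0.49 and -0.28 in *Rps27-FLAG* and -0.27, 0.53 and -0.11 in *Rps27l-FLAG*, where replicate 2 went the other way. Neither passed the test with or without the block. *Slc25a17* had -0.04, -0.01 and -0.14 in *Rps27-FLAG* and 0.13, 0.09 and 0.17 in *Rps27l-FLAG*, below 0 in each *Rps27-FLAG* clone and above 0 in each *Rps27l-FLAG* clone, and passed in neither line. *Slc25a32* stood at -0.07 and -0.12.

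Among the amino acid carriers *Slc25a13* and *Slc25a12*, whose CDSs are lengthened by an N-terminal calcium-binding part, had clone ratios of 0.01, -0.01 and 0.02 and -0.04, -0.08 and 0.02 in *Rps27-FLAG* and 0.05, 0.00 and 0.20 and -0.08, 0.07 and -0.29 in *Rps27l-FLAG*. In *Rps27-FLAG* the clones of both genes lay close to 0. The short glutamate carrier *Slc25a22* had -0.33, -0.04 and -0.30 in *Rps27-FLAG* and 0.02, -0.36 and -0.75 in *Rps27l-FLAG*, and *Slc25a15* had -0.12, -0.49 and -0.22 in *Rps27-FLAG* and 0.21, -0.27 and -0.23 in *Rps27l-FLAG*. Of these 4, *Slc25a15* was called with the block, in *Rps27-FLAG* (adjusted p = 0.0163 from edgeR). *Slc25a44*, a carrier of branched-chain amino acids, had the lowest log2 fold change of the family in *Rps27-FLAG* (-0.41, standard error 0.235) and nearly the same in *Rps27l-FLAG* (-0.41, standard error 0.327), from clone ratios of -0.14, -0.53 and -0.58 in *Rps27-FLAG* and -0.58, 0.25 and -0.82 in *Rps27l-FLAG*, and did not pass. *Slc25a38* had 0.06 and -0.07.

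The remaining members did not pass the test in either line, with or without the block. *Slc25a20*, which carries acylcarnitines to fatty acid oxidation, had log2 fold changes of -0.16 and -0.12. *Slc25a14* and *Slc25a30*, related to uncoupling proteins, had -0.27 and -0.13 in *Rps27-FLAG* and 0.06 and -0.04 in *Rps27l-FLAG*, and those of *Slc25a14* came from clone ratios of -0.47, 0.05 and -0.28 in *Rps27-FLAG* and -0.08, -0.19 and 0.47 in *Rps27l-FLAG*. The ATP-Mg/phosphate carriers *Slc25a24* and *Slc25a25*, which also hold a calcium-binding part, had 0.01 and 0.03 in *Rps27-FLAG* and -0.08 and -0.10 in *Rps27l-FLAG*. *Slc25a46*, which sits in the outer membrane, is no known transporter and held no signature match, had ratios above 0 in all 6 clones (0.11, 0.05 and 0.13, then 0.01, 0.22 and 0.06), and values of -0.04 and -0.02 once the length trend was removed, not called.

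IP over total RPFs varied with CDS length across all transcripts, and the family is short, with CDSs of 717 to 2031 nt (median 951) against a median of 1438.5 nt for all tested transcripts. Its median GC content of the CDS was 52.8%, against 52.7% for all tested transcripts. Each member was therefore set against the 620 to 1175 tested transcripts outside the family whose CDS was within 10% of its own length. The medians of these like-length transcripts in *Rps27-FLAG* ran from 0.13 for *Slc25a46*, the shortest CDS, to -0.07 for *Slc25a13*. In *Rps27-FLAG* 23 of 30 members were below the median of their like-length transcripts, by a median of -0.22, and the median member lay at the 12.1 percentile. Of the members 17 lay under the 25th percentile of their like-length transcripts and 1 over the 75th. In *Rps27l-FLAG* 23 of 30 were below, by a median of -0.10, at a median percentile of 27.95, with 14 under the 25th and 3 over the 75th. In single clones the median difference was -0.18, -0.18 and -0.23 in *Rps27-FLAG* (23 of 30 members below in each) and -0.11, -0.17 and -0.11 in *Rps27l-FLAG* (20, 20 and 21 below).

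**Figure D3:**
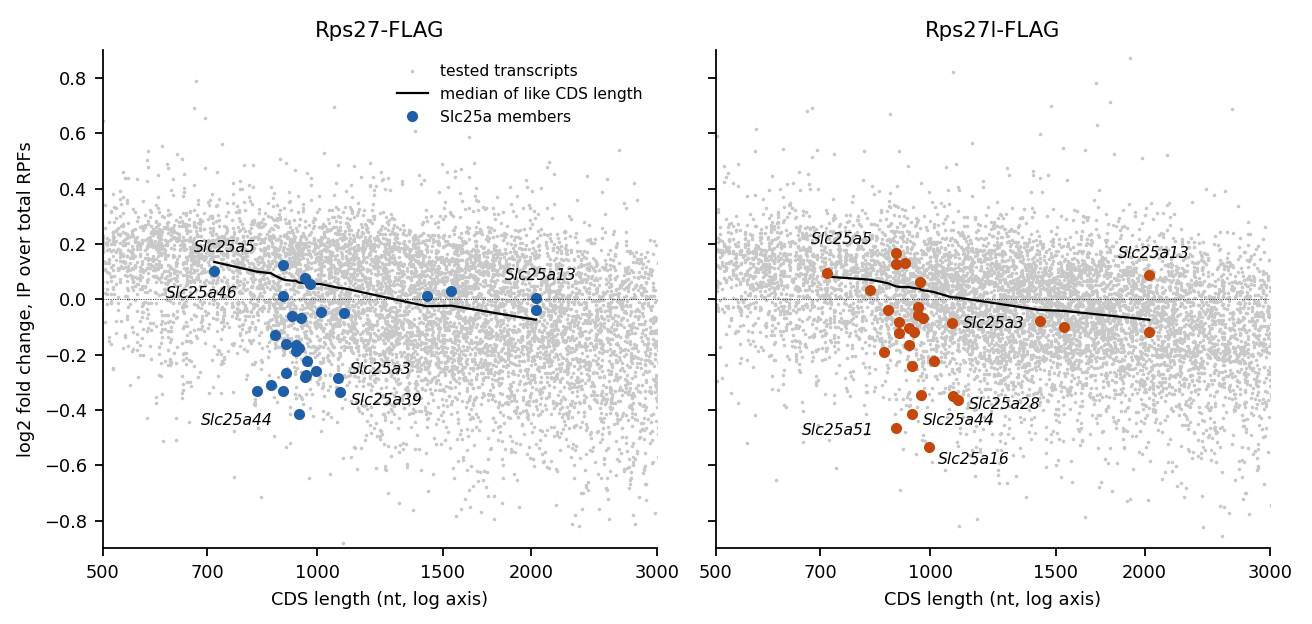
log2 fold change of IP over total RPFs against CDS length (log axis) for *Rps27-FLAG* (left) and *Rps27l-FLAG* (right), with grey points for all tested transcripts inside the axes, a line through the medians of the transcripts of like CDS length and large points for 29 of the 30 tested Slc25a members. In each line 23 members lie under the line of medians. *Slc25a12*, *Slc25a13*, *Slc25a24* and *Slc25a25*, which have the longest CDSs, all lie above it in *Rps27-FLAG*, and in *Rps27l-FLAG* only *Slc25a13* of these does.

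The lowest members against like-length transcripts, by the mean of both lines, were *Slc25a44* (-0.47 and -0.45), *Slc25a51* (-0.40 and -0.51), *Slc25a39* (-0.38 and -0.36) and *Slc25a16* (-0.32 and -0.56). *Slc25a39* had 147 to 503 counts per library, more than the other 3, and lay at the 3.48 and 3.58 percentile. Above like-length transcripts in both lines were, among others, *Slc25a13* (0.08 and 0.16) and *Slc25a5* (0.05 and 0.12). In all, 19 members were below in both lines, 3 above in both, 4 below in *Rps27-FLAG* alone and 4 below in *Rps27l-FLAG* alone. Across the 30 members the differences in the 2 lines had a Pearson's r of 0.63 and a Spearman's rho of 0.58. These are given as a description, since members share the libraries of each line. The lines share no library, but their same-numbered libraries came from 1 pool. The same correlation over all transcripts was not computed, so these values cannot be called particular to the family. With log2 level the differences had rank correlations (Spearman's rho, *Rps27-FLAG* first) of 0.23 and 0.24, and with GC content -0.18 and -0.32. IP RPF libraries were also smaller and held a smaller share of mitochondrially encoded transcripts, and the part of these in the difference was not tested. Against transcripts of like CDS length that also had a WT level within a factor of 2 (18 to 425 each), a comparison chosen after seeing the data, the median difference was -0.20 in *Rps27-FLAG* and -0.08 in *Rps27l-FLAG*, with 23 of 30 members below in each.

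**Figure D4:**
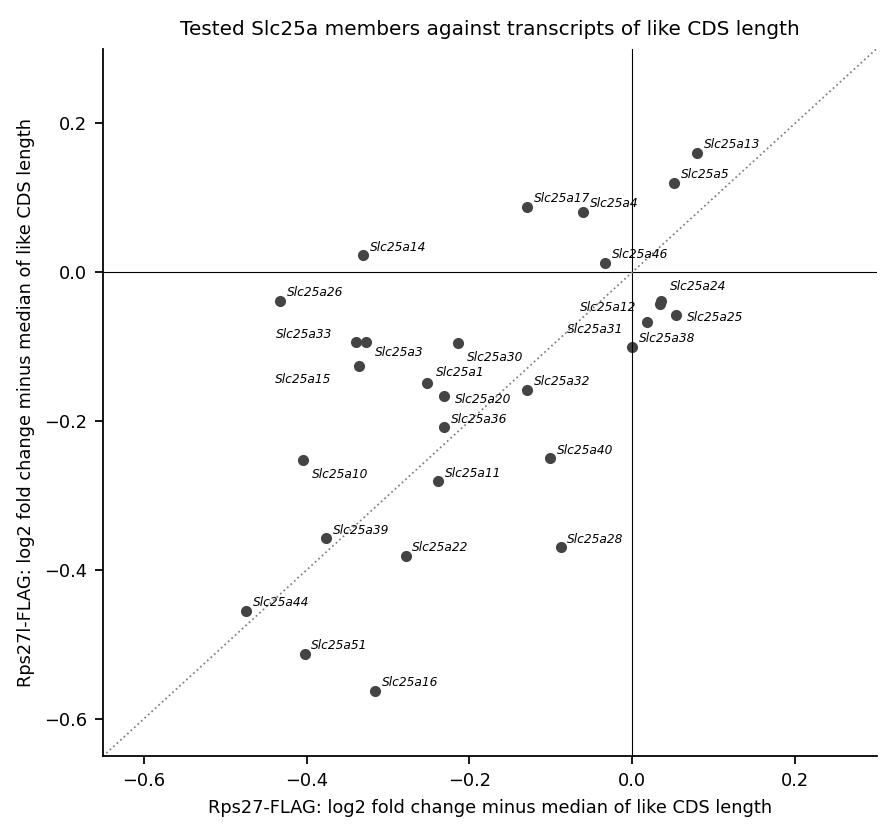
Difference of the log2 fold change of IP over total RPFs from the median of transcripts of like CDS length for 29 of the 30 tested Slc25a members, for *Rps27-FLAG* (horizontal) and *Rps27l-FLAG* (vertical), with lines at 0 and a dotted line of equal values. In the lower left lie 19 members, below in both lines, and *Slc25a13* and *Slc25a5* in the upper right.

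Removing the trend with CDS length from each library, with the clone as a block, put 12 members past the threshold in each line. In *Rps27-FLAG* all 12 were lower (18.2% of all transcripts were lower and 12.2% higher). In *Rps27l-FLAG* 10 were lower (13.2% of all) and *Slc25a5* and *Slc25a13* higher (9.14% of all). Lower in both lines were *Slc25a1*, *Slc25a3*, *Slc25a11*, *Slc25a20*, *Slc25a22*, *Slc25a36* and *Slc25a39*. The share of all transcripts lower in both lines was not counted, so this overlap is no result about the family. *Slc25a3* then stood at -0.35 in *Rps27-FLAG* and -0.13 in *Rps27l-FLAG*, and *Slc25a39* at -0.40 and -0.40.

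The IP effects of the 2 lines were compared in 1 fit holding cell line, clones nested in lines and fraction nested in lines. A call also needed a log2 difference over 0.25 in either direction. Under this rule 0 members were called, where 0.565% of all transcripts were called, and 3 members had an unadjusted p under 0.05. The median over the 30 members was 0.00, against -0.00 over all transcripts, and 15 were below 0. Against transcripts of like CDS length the median difference was 0.03, with 12 members below and 18 above. By the adjusted p alone, which called 1.35% of all transcripts higher in *Rps27l-FLAG*, 1 member passed. This was *Slc25a3*, with clone ratios of -0.32, -0.24 and -0.29 in *Rps27-FLAG* and -0.09, -0.10 and -0.07 in *Rps27l-FLAG*. The clones of the lines did not overlap, and the difference was 0.20 (standard error 0.0397, adjusted p = 6.75e-04 from edgeR). It passed in 14 of 15 alternatives and was lost in the fit without the clone (adjusted p = 1.00). The other high values were those of *Slc25a26* (0.35, standard error 0.241) and *Slc25a14* (0.32, 0.340), and the lowest those of *Slc25a28* (-0.31, 0.177), *Slc25a16* (-0.25, 0.272) and *Slc25a40* (-0.18, 0.168), none of which passed.

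Proteins of the same family under other symbols, and others that handle or neighbour the carriers, were set beside them with the clone as a block. Of 5 family proteins under other symbols, 3 were tested, and all 3 were below their like-length transcripts in both lines. *Ucp2*, an uncoupling protein, had log2 fold changes of -0.25 and -0.35 in *Rps27-FLAG* and *Rps27l-FLAG* (adjusted p = 0.0183 and 0.00302 from edgeR with the block). *Mtch1* had -0.25 and -0.06 and *Mtch2*, which inserts proteins into the outer membrane, -0.16 and -0.11. With the block all 3 were called lower in *Rps27-FLAG* and *Ucp2* and *Mtch2* in *Rps27l-FLAG*, where 22.9% and 19.0% of all transcripts were called lower. The 3 porins of the outer membrane, *Vdac1*, *Vdac2* and *Vdac3*, had -0.10, -0.14 and -0.11 in *Rps27-FLAG*, all called lower with the block, and 0.07, -0.04 and -0.05 in *Rps27l-FLAG*, not called. Without the block none of these family proteins and porins was called in either line.

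For the import route of the carriers, calls went in both directions. Of its 11 tested proteins, 5 were called higher and 2 lower in *Rps27-FLAG* with the block, and 2 higher and 1 lower in *Rps27l-FLAG*, where 41.2% and 31.0% of all transcripts were called. The median log2 fold changes were 0.10 and 0.11. Most of these proteins have very short CDSs, and against transcripts of like CDS length 7 and 9 of the 11 were below, by medians of -0.09 and -0.05. The carrier receptor *Tomm70a* had 0.18 and 0.09, *Tomm20* 0.21 and 0.18, and *Tomm22* 0.10 and 0.11. Of 10 tested inner membrane carriers outside the family, 2 were higher and 3 lower in *Rps27-FLAG* with the block, and 0 higher and 1 lower in *Rps27l-FLAG*. Against like-length transcripts 5 and 7 of these 10 were below, by medians of -0.01 and -0.09. The pyruvate carrier subunits *Mpc1* and *Mpc2*, with very short CDSs, had 0.37 and 0.37 in *Rps27-FLAG* and -0.03 and 0.10 in *Rps27l-FLAG*. *Sfxn1*, a serine carrier, had 0.12 and -0.03. Differences between these groups and the carriers were not tested.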

How the data were processed

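Ribosome-protected fragments of 15 libraries were analysed. The deposited values are counts per transcript, made by the authors: adapters trimmed with cutadapt 2.4, rRNA, tRNA and other small RNA reads removed and the rest aligned with Bowtie2 2.3.4.3 to transcripts of GENCODE VM20 on GRCm38, duplicates removed by molecular identifier with UMI-tools 1.0.1 (versions as in the submitters' processing notes), and unique alignments counted in the CDS without its first 15 and last 5 codons. Symbols, lengths and sequences were taken from GENCODE M21, in which 4 transcripts had no entry, and 0 sample columns were left out.

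Mitochondrially encoded transcripts were removed, and those above 2 CPM in no fewer than 14 of 15 libraries were kept. IP and total libraries were normalized separately (TMM). Counts were tested with edgeR 4.0.16 quasi-likelihood tests in R 4.3.3, with Benjamini-Hochberg adjustment over 10085 transcripts and a threshold of 0.05, by fraction within each tagged line, by cell line for total RPFs, and by line, clone and fraction for the difference between lines, where the limit was 0.25 and *Tmod3* was left out of the calls as in the study. Levels are normalized CPM per kb, and log2 clone ratios used a prior of 0.5. Alternatives were the clone or replicate as a block, voom with limma 3.58.1, DESeq2 1.42.0, other scaling and filters, removal of the length trend (loess span 0.5) and leaving out each replicate. Figures were drawn in Python 3.11.15 with matplotlib 3.10.9.

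By the labels both fractions of a replicate are 1 clone, and their deviations from the group means correlated in all 6 clones (r = 0.483 to 0.798). Same-numbered total libraries of different lines, which shared the pool of a replicate described above, had r = -0.167 to 0.719. Both fractions of a clone shared this pool too, and its part in their correlation was not tested. On data simulated from these libraries, tests recovered 85.5% of 200 transcripts changed by a log2 of 1 between fractions of *Rps27-FLAG* (13 false calls). They recovered 83.5% for the same change between total RPFs of the tagged lines (2 false). For the difference between lines they recovered 64.5% of those changed by 0.5 (3 false). In these comparisons the largest log2 changes of a tested member, in either direction, were smaller (-0.41, 0.37 and 0.35). Recovery of changes that small was not simulated, so these rates do not tell how many such changes the tests miss. Named with values were members called in any comparison with or without the block, the 5 highest, the 3 highest and 3 lowest of each IP comparison, and paralog sets. Values of 1 tested member and of 1 other transcript are not reported here. Members and lists were chosen with earlier results of these data known. The floor of 3 counts covers counting error only.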

Additional observations from a re-analysis of the deposited data

Results flagged for a closer look

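The IP effect of *Slc25a3* differed between the tagged lines by a log2 of 0.20 (*Rps27l-FLAG* minus *Rps27-FLAG*, adjusted p = 6.75e-04 from edgeR), by a test of the difference itself. IP was below total RPFs in 6 of 6 clones, by -0.32 to -0.24 in *Rps27-FLAG* and -0.10 to -0.07 in *Rps27l-FLAG*. The difference was smaller than the limit of 0.25 and was not past the threshold when the clone was left out of the fit.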

How the results depend on the processing

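With the replicate block (IP and total library of 1 clone) the members called numbered 8 in *Rps27-FLAG* and 8 in *Rps27l-FLAG* in place of 1 and 0, and with the length trend removed with the replicate block 12 and 12. In total RPFs of *Rps27l-FLAG* over *Rps27-FLAG* the replicate block gave 1 member in place of 0. The difference between lines gave 1 member without the limit on the log2 fold change. Leaving out a replicate gave 0 to 1 members in *Rps27-FLAG*, with 0 without replicate 2 or 3. The median log2 fold change was -0.25 in *Rps27-FLAG* with the length trend removed and -0.25 with the block as well, and -0.16 to -0.11 leaving out a replicate. In *Rps27l-FLAG* it was -0.14 with no filter on low counts, -0.13 with the length trend removed, -0.13 with the block as well, and -0.11 to -0.056 leaving out a replicate. The difference from like-length transcripts was -0.21 to -0.18 leaving out a replicate in *Rps27-FLAG* and -0.14 to -0.089 in *Rps27l-FLAG*, and -0.20 in *Rps27-FLAG* with WT level matched too (chosen after seeing the data). The cause of these shifts was not tested. With the length trend removed with the replicate block, *Slc25a4* turned to -0.09 in *Rps27-FLAG* (adjusted p = 0.0293 from edgeR, called lower), and the signs of 4 other members in *Rps27-FLAG* and 3 in *Rps27l-FLAG* that were not called turned as well, among them *Slc25a46* in both lines. The median difference between lines, near 0, ran from -0.01 to 0.03. voom and DESeq2 gave the same member counts. Members with few counts, such as *Slc25a16*, *Slc25a44* and *Slc25a51*, had large standard errors.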
